A study of Mus musculus with 6 samples.

Results

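The miR-21a hairpin gives rise to a pair of mature miRNAs, mmu-miR-21a-5p and mmu-miR-21a-3p (below without the species prefix), and both were followed here in extracellular vesicles recovered from mouse brain. The members were chosen by name from the deposited table, which gave 2 of its 1926 miRNA rows. They had been picked with their values already known, because miR-21a-5p was higher in vesicles after seizures, so the difference between the groups in both arms is a description and carries no test. The groups were SE-BDEV, brain-derived vesicles of mice that had gone through status epilepticus (a prolonged seizure), and CON-BDEV, vesicles of matched control mice, with 3 libraries each. All titles carry day 10. Genotype, strain, age, sex, the agent that brought on the seizures and the event from which the day is counted are details not given in the sources at hand. The labels also do not say whether libraries of a group came from separate or pooled animals, so the spread between them may be technical.

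A miRNA is cut from a hairpin transcript into a short duplex. One strand, the guide, is loaded into an Argonaute protein and represses mRNAs that match its seed, while the other strand, the passenger, is mostly degraded. miR-21 is induced by injury and inflammatory signals in many tissues, where the transcription factors STAT3 and AP-1 act on its promoter, and it is known to repress Pdcd4, which restrains translation. In brain it is raised in reactive astrocytes and microglia after damage. Vesicles carry part of the miRNA of the cells that release them.

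The mature sequences of both arms are shown because they carry different seeds, and those of the related miR-21b and miR-21c because reads could be shared with miR-21a-5p. They are RefSeq's, on mouse build GRCm38.p6, with the seed (bases 2 to 8 from the 5′ end) in capitals.
miR-21a-5p: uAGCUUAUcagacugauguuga
miR-21a-3p: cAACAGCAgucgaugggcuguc
miR-21b: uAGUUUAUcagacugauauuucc
miR-21c: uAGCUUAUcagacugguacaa
Both arms matched an entry in that table by name. Each is 22 bases long, and their seeds are unrelated. Of the 1738 mature entries in that table, 2 carry the seed of miR-21a-5p, namely itself and miR-21c, and 1 carries that of miR-21a-3p.

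The near copies were listed at 0. Counted from 1 at the 5′ end of miR-21a-5p, miR-21c differs by A16G, G18A, U19C, U20A and G21A, so its first 15 bases are the same. miR-21b differs by C4U, which lies within the seed, and by G18A, G21U and A22C. miR-21b and miR-21c were listed at 0 RPM (reads scaled to the same miRNA total in each library) in all 6 libraries, as was miR-590-5p, which is commonly placed in the miR-21 seed family and whose sequence was not compared here. Reads too short to reach base 16 cannot tell miR-21a-5p from miR-21c, and how the authors assigned such reads is not stated in the labels or headers.

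On GRCm38.p6 the hairpin Mir21a lies at chr11:86584067-86584158 on the minus strand and is 92 bases long. In GENCODE M21, of the same build, it lies inside an exon of Vmp1, a gene for a membrane protein needed for autophagy, on the same strand and within the part annotated as untranslated. The submitters' processing notes name mm9, an earlier build, so these positions were used with no value of the libraries. In the fold predicted by RNAfold for the RefSeq hairpin, 19 of the 22 bases of miR-21a-5p were paired with miR-21a-3p. All 7 seed bases of the 5p arm and 6 of the 7 of the 3p arm were paired.

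Depth ranged over the 6 libraries between 4400167 and 9391887 miRNA reads, and 532 to 631 miRNAs were above 0. The neuronal miR-124-3p was at 8061 ± 1444 RPM in SE-BDEV and 8213 ± 800 RPM in CON-BDEV (SD, n = 3 each). All 7 miRNAs of the neuron list were above 0, so the neuronal miRNAs looked for were present. From the oligodendrocyte list, miR-219a-5p was listed at 0 in every library. Its other members were above 0: miR-219a-2-3p averaged 35.5 RPM in SE-BDEV and 29.7 RPM in CON-BDEV, and miR-338-3p 214 and 127 RPM. The red-cell miRNAs miR-451a, miR-144-3p and miR-144-5p and the heart miR-208a-3p were listed at 0 in every library. Other members of those lists were not. The red-cell miR-486a-5p/486b-5p averaged 108 RPM in SE-BDEV and 123 RPM in CON-BDEV. From the list of other organs, miR-1a-3p averaged 149 RPM in SE-BDEV and 84.2 RPM in CON-BDEV. A listed 0 was not always an absence: miR-24-3p was listed at 0 in 4 libraries, at 3128 RPM in SE-BDEV 3 and at 3544 RPM in CON-BDEV 3. The libraries numbered 3 therefore stand apart for that miRNA, and some results are also given below without those libraries.

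miR-21a-5p was the arm seen in every library. The level of mmu-miR-21a-5p was 97.5 RPM in SE-BDEV 1, 119 RPM in SE-BDEV 2 and 163 RPM in SE-BDEV 3, against 7.05 RPM in CON-BDEV 1, 17.2 RPM in CON-BDEV 2 and 21.0 RPM in CON-BDEV 3. The lowest SE-BDEV library was 4.65 times the highest CON-BDEV library, so the groups did not overlap. Of the 308 miRNAs averaging at least 10 RPM, 10.7% had all SE-BDEV values above all CON-BDEV values, and since the member was chosen in this contrast nothing is read from that share. The group means were 126 ± 33.2 RPM in SE-BDEV and 15.1 ± 7.20 RPM in CON-BDEV (SD, n = 3 each), a ratio of 8.39. On the log2(RPM + 1) scale the difference was 3.08 ± 0.40 (SE from limma), the highest of the 308, whose median was 0.06. In the authors' deposited table the log2 fold change was 2.97 with a standard error of 0.46.

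**Figure D1:**
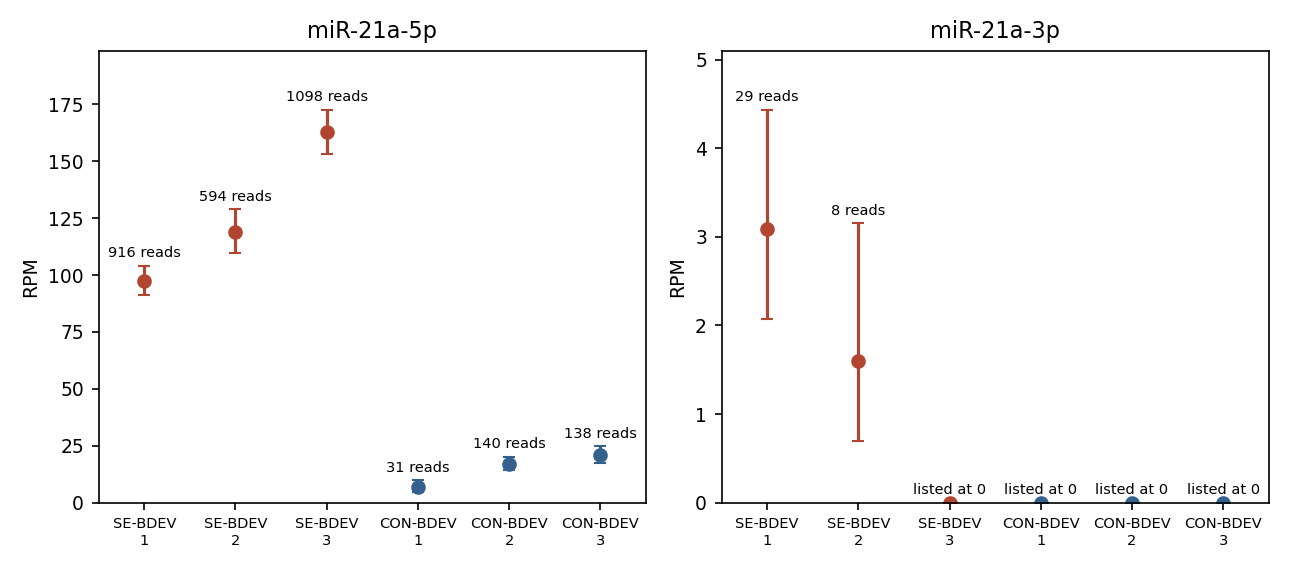
RPM of miR-21a-5p (left) and miR-21a-3p (right) in each library, SE-BDEV in red and CON-BDEV in blue, with 95% Poisson intervals for counting error and the number of reads above each point; the vertical scales differ. miR-21a-5p sits between 97.5 and 163 RPM in SE-BDEV and between 7.05 and 21.0 RPM in CON-BDEV, while miR-21a-3p is above 0 in SE-BDEV 1 and 2.

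Behind these values were 916, 594 and 1098 reads in SE-BDEV 1, 2 and 3, and 31, 140 and 138 reads in CON-BDEV 1, 2 and 3. CON-BDEV 1, the shallowest library, was the low one. Its 95% Poisson interval was 4.79 to 10.0 RPM and did not meet that of CON-BDEV 2 (14.5 to 20.3 RPM), so its distance from the other controls exceeded counting error. CON-BDEV 2 and 3 had overlapping intervals, that of CON-BDEV 3 reaching from 17.6 to 24.8 RPM. Without CON-BDEV 1 the log2 difference was 2.64, the smallest value with 1 library left out.

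The spread among libraries was larger than counting error in both groups. The coefficient of variation of miR-21a-5p was 26.3% in SE-BDEV and 47.8% in CON-BDEV, where counting error alone would give 3.46% and 10.5%. This was not unusual for miRNAs of like abundance. Of the 66 other miRNAs within a factor of 2 of its SE-BDEV mean, 28 varied more, with a median of 24.2%, and of the 125 around its CON-BDEV mean, 32 varied more, with a median of 34.4%.

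In the order of abundance miR-21a-5p ranked 113 to 138 in the SE-BDEV libraries and 230 to 362 in the CON-BDEV libraries. It made up 0.00975% to 0.0163% of all miRNA reads in SE-BDEV and 0.000705% to 0.00210% in CON-BDEV, so it was a minor component of both. By group mean it ranked 119 in SE-BDEV, between miR-92b-5p (128 ± 18.1 RPM) and miR-6538 (125 ± 12.2 RPM), with miR-6240 (129 ± 51.8 RPM) and miR-376a-3p (125 ± 95.1 RPM) next to those (SD, n = 3). In CON-BDEV it ranked 267, between miR-365-3p (15.1 ± 2.91 RPM) and miR-370-3p (14.8 ± 6.88 RPM), with miR-153-5p (15.8 ± 3.35 RPM) and miR-181a-2-3p (14.8 ± 2.59 RPM) beyond them (SD, n = 3). These neighbours were picked for being next to miR-21a-5p in mean level, so their closeness to it follows from that choice. In bulk vesicle RNA, more vesicles from 1 kind of cell and more miRNA in each vesicle cannot be told apart.

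miR-21a-3p, the passenger arm, was near the limit of detection. The level of mmu-miR-21a-3p was 3.09 RPM in SE-BDEV 1 (29 reads, 95% Poisson interval 2.07 to 4.43 RPM) and 1.60 RPM in SE-BDEV 2 (8 reads, 0.691 to 3.16 RPM). It was listed at 0 in SE-BDEV 3 and in all CON-BDEV libraries, so the groups overlapped at 0 and no fold is given. SE-BDEV 3, where the 3p arm was listed at 0, was the library with the most miR-21a-5p. Had the 3p arm taken the share it had in the summed SE-BDEV reads, 15.4 reads would have fallen in SE-BDEV 3, against 0.434 to 1.96 reads in each CON-BDEV library. Over the 3 CON-BDEV libraries together it would have been 4.32 reads, where the smallest value listed in any library was 2 reads. The summed share includes SE-BDEV 3 itself, so the share of SE-BDEV 1 and 2 together would give more reads in each case. A 0 beside reads in another library of the group was common at this depth. Of the 101 miRNAs whose highest SE-BDEV library held 20 to 39 reads, 56 (55.4%) were listed at 0 in at least 1 other SE-BDEV library, and for CON-BDEV it was 49 of 103 (47.6%). The pattern of miR-21a-3p, 0 in all libraries of a group and above 0 in 2 of the other, was held by 13 of the 803 detected miRNAs in the direction of SE-BDEV and by 14 in the direction of CON-BDEV. The authors' deposited table gave it a log2 fold change of 5.65 with a standard error of 3.37, an estimate that depends on how the model treats the zeros.

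The 5p arm was the major arm throughout. It made up 96.9% of the miR-21a reads in SE-BDEV 1 (95% Clopper-Pearson interval 95.6 to 97.9%), 98.7% in SE-BDEV 2 (97.4 to 99.4%) and all of the 1098 reads in SE-BDEV 3 (interval from 99.7%). In CON-BDEV all listed miR-21a reads were of the 5p arm, with intervals from 88.8% in CON-BDEV 1 and from 97.4% in CON-BDEV 2 and 3. These intervals take a listed 0 of the 3p arm as 0 reads, though a listed 0 was not always an absence. In the libraries where both arms were seen, miR-21a-5p had 31.6 reads per read of miR-21a-3p in SE-BDEV 1 and 74.3 in SE-BDEV 2. The interval of SE-BDEV 3 did not meet that of SE-BDEV 1 or SE-BDEV 2, but it rests on a listed 0, so no difference in arm share is read from it. Those of the CON-BDEV libraries numbered 1, 2 and 3 met those of SE-BDEV 1, 2 and 3. On the log2(RPM + 1) scale the 5p arm exceeded the 3p arm in 6 of 6 libraries, by 4.85 ± 1.47 on average (SD, exact sign-flip permutation test, two-sided p = 0.0312, the smallest that 6 libraries allow). The members were not chosen by this comparison within libraries, but they were picked with the values of miR-21a-5p already known. The test also takes the libraries as independent, which the labels do not state. Nothing is therefore read from its p-value.

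**Figure D2:**
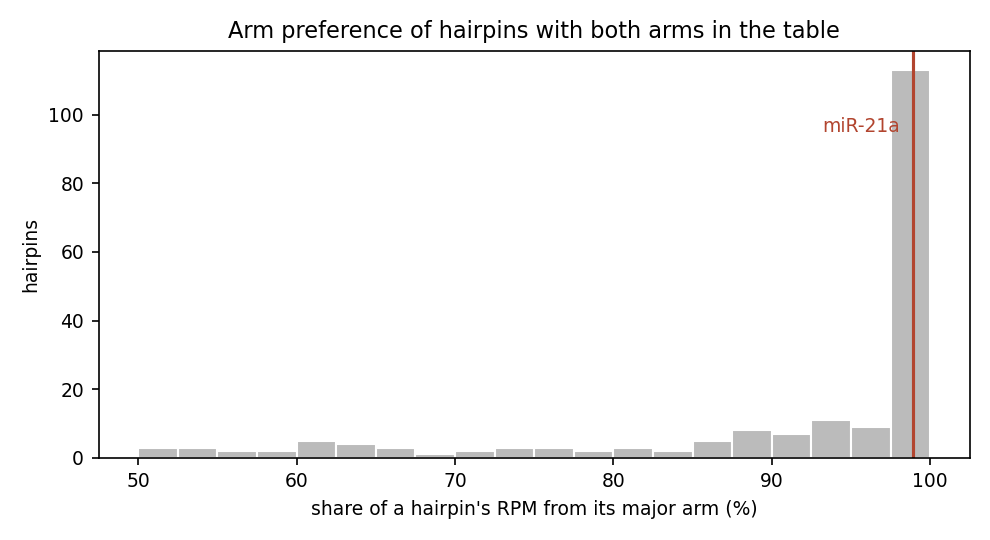
Share of a hairpin's RPM that came from its major arm, as a histogram over the 191 hairpins with both arms in the table and a mean of 10 RPM or more; the horizontal axis is in percent, the vertical axis counts hairpins, and the red line marks miR-21a. miR-21a, at 98.9%, lies near the median hairpin at 98.7%.

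Strong preference for 1 arm was the rule in these vesicles. Over the 191 hairpins with both arms listed and at least 10 RPM on average, the major arm held a median of 98.7% of RPM, and in miR-21a it held 98.9%. Of these hairpins 92 were more one-sided than miR-21a and 98 less, and in 44 the minor arm was listed at 0 in every library. The major arm was the 5p arm in 117 of the 191.

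Because RPM values depend on the total, which let-7 miRNAs dominate in these libraries, miR-21a-5p was also set against single miRNAs of the same library, chosen after their values were seen. Per 1000 reads of the neuronal miR-124-3p there were 12.2, 17.9 and 17.1 reads of miR-21a-5p in SE-BDEV 1, 2 and 3, against 0.901, 2.23 and 2.30 in CON-BDEV 1, 2 and 3. The groups did not overlap, and the ratio of their means was 8.67. Per 1000 reads of the endothelial miR-126a-3p there were 22.4, 33.3 and 29.0 reads in SE-BDEV 1, 2 and 3, against 2.74, 5.27 and 5.39 in CON-BDEV 1, 2 and 3, again without overlap and with a ratio of means of 6.31. Relative to these neuronal and endothelial miRNAs miR-21a-5p was higher in SE-BDEV, as it was relative to the total. The denominators had log2 differences of -0.04 (miR-124-3p) and 0.47 (miR-126a-3p). These ratios therefore restate the difference for which miR-21a-5p was chosen and add no support to it.

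Relative to miRNAs of immune cells the size of the gap depended on the miRNA it was set against. Per 1000 reads of miR-142a-5p, from a hairpin of blood-forming cells, there were 1047, 985 and 2530 reads of miR-21a-5p in SE-BDEV 1, 2 and 3, against 337, 670 and 793 in CON-BDEV 1, 2 and 3, a ratio of means of 2.53 with no overlap. Per 1000 reads of miR-155-5p, an inflammation-induced miRNA, there were 446, 460 and 860 reads in SE-BDEV 1, 2 and 3, against 190, 619 and 533 in CON-BDEV 1, 2 and 3. Here the groups overlapped, and the ratio of means was 1.31. Over the other tested members of the microglia and leukocyte list the groups did not overlap. The ratio of means was 3.24 over miR-146a-5p, 2.76 over miR-142a-3p, 7.48 over miR-342-3p and 10.8 over miR-150-5p. The values over miR-142a-5p and miR-155-5p are those over the called members of the list, which were themselves higher in SE-BDEV.

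**Figure D3:**
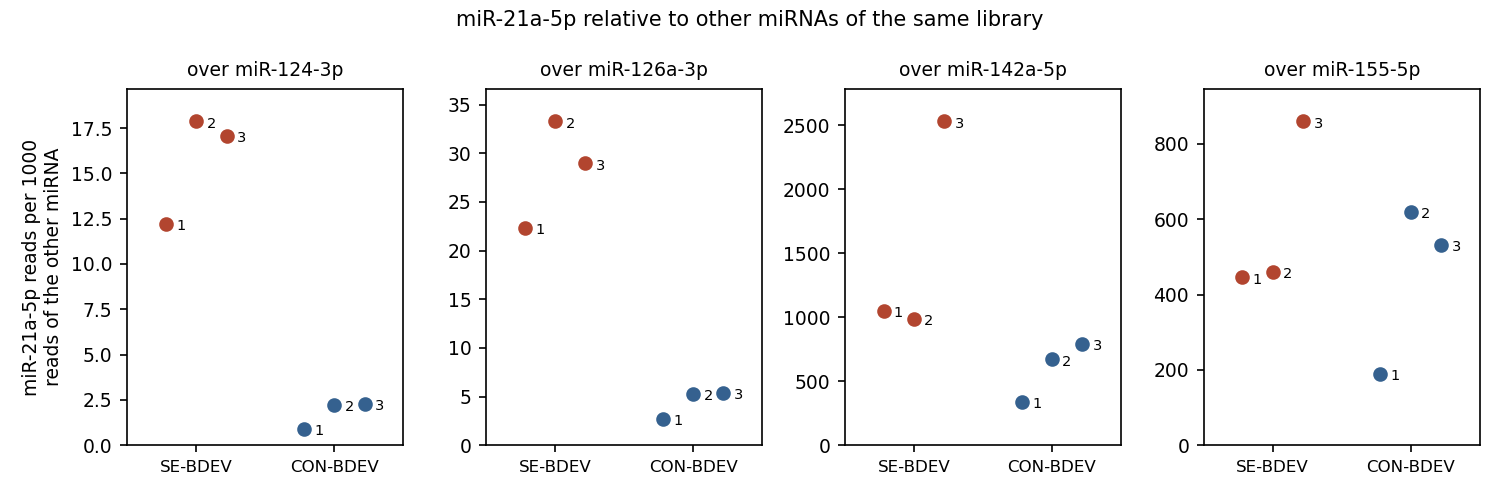
Reads of miR-21a-5p per 1000 reads of miR-124-3p, miR-126a-3p, miR-142a-5p and miR-155-5p (panels from left to right, each with its own vertical scale from 0), with 1 point per library numbered by replicate, SE-BDEV in red and CON-BDEV in blue. The groups are apart in the first 3 panels and overlap over miR-155-5p, where SE-BDEV lies between 446 and 860 and CON-BDEV between 190 and 619.

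Other miRNAs known to be induced in inflammation were compared in the same fit. Their list was chosen with earlier results of these data known, so its counts and calls are descriptions. Of 10 listed, 7 had a mean of 10 RPM or more, 1 was called higher in SE-BDEV, none was called lower and 6 of the 7 had higher values, with a median log2 difference of 0.80 against 0.06 over all 308 tested. Over all tested miRNAs 57.5% had higher values and 0.974% were called, all of the called ones higher (limma, adjusted p under 0.05). At an unadjusted p under 0.05 limma gave 25 higher and 7 lower. These counts include miR-21a-5p, which was chosen in this contrast, so nothing is read from its call. The called one of the list was miR-155-5p, with a log2 difference of 2.65 ± 0.30 (SE, limma adjusted p = 0.000284). miR-146a-5p, which damps inflammatory signalling, stood at 69.3, 77.9 and 29.3 RPM in SE-BDEV 1, 2 and 3, against 10.9, 15.3 and 24.6 RPM in CON-BDEV 1, 2 and 3. Its log2 difference was 1.69 ± 0.42 (SE) and did not pass (limma adjusted p = 0.105, or 9.34e-05 with the replicate number as a block). The labels do not say that libraries sharing a replicate number are pairs. With 1 library left out, the adjusted p of miR-146a-5p ranged from 0.0126 without CON-BDEV 2 to 0.723 without SE-BDEV 1 (limma). SE-BDEV 3, the library with the most miR-21a-5p, had the least miR-146a-5p of its group, and CON-BDEV 3 had the most of its group. Leaving out both libraries numbered 3 therefore widened the gap, and the adjusted p of miR-146a-5p was then 0.00646 (limma).

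The other members of that list did not pass. The activity-induced miR-132-3p was at a log2 difference of 0.71, and its cluster partner miR-212-3p at 0.80, with miR-146b-5p at 0.83, miR-221-3p at 0.21 and miR-222-3p at -0.49 (limma adjusted p of 0.344 to 0.818). miR-223-3p, a granulocyte miRNA, was below the filter, at 4.30 to 7.21 RPM in SE-BDEV and 0 to 3.41 RPM in CON-BDEV. miR-155-3p, the passenger arm of the called miRNA, and miR-147-3p were listed at 0 in every library.

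**Figure D4:**
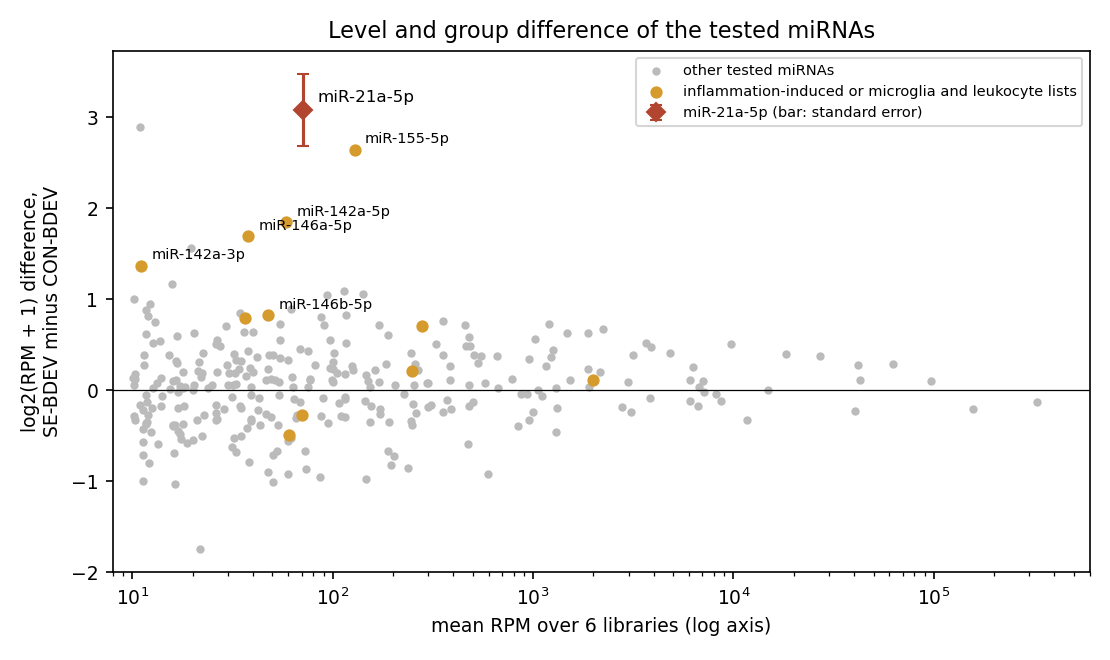
Difference between the groups on the log2(RPM + 1) scale (SE-BDEV minus CON-BDEV, vertical axis) against mean RPM over 6 libraries (horizontal log axis) for the 308 tested miRNAs, with miR-21a-5p as a red diamond with its standard error and the inflammation-induced and the microglia and leukocyte lists in orange. miR-21a-5p lies highest at 3.08. Within the 2 lists miR-155-5p lies highest at 2.65, then miR-142a-5p at 1.85. miR-872-5p, which is in neither list and was not called, lies at 2.89 with a standard error of 0.96 (limma adjusted p = 0.344).

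miRNAs of tissue repair, which are studied beside miR-21 in fibrosis and respond to TGF-beta, did not move past the threshold. Of 10 listed, 6 were tested and none was called in either direction, with a median log2 difference of 0.36 and higher values for all 6 (5 of 6 with median-of-ratios scaling or when the 10 most abundant were left out of the total). At an unadjusted p under 0.05 limma gave 0 of them as well. The share with higher values over all tested miRNAs was 57.5%. The merged miR-199a-3p/199b-3p, made in mural cells and fibroblasts, was at 17.4 ± 1.18 RPM in SE-BDEV and 13.1 ± 2.12 RPM in CON-BDEV (SD, n = 3 each; limma adjusted p = 0.678). miR-29a-3p, which represses collagens, was at 6936 ± 2104 RPM in SE-BDEV and 5582 ± 77.8 RPM in CON-BDEV (SD, n = 3 each; limma adjusted p = 0.724). miR-199a-5p, miR-199b-5p, miR-214-3p and miR-192-5p were at no more than 4.47 RPM in any library.

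Among the cell-type lists, 1 held called miRNAs. These lists too were chosen with earlier results of these data known, so their counts and calls are descriptions. Over all 308 tested miRNAs 0.974% were called (limma, adjusted p under 0.05). At an unadjusted p under 0.05 limma gave 25 of the 308 higher and 7 lower. Of the 7 miRNAs of microglia and leukocytes 6 were tested, 2 were called higher and none lower, with a median log2 difference of 1.53, and 4 were higher and 0 lower at an unadjusted p under 0.05 (limma). The called ones were miR-155-5p, which is also in the list above, and miR-142a-5p, at a log2 difference of 1.85 ± 0.32 (SE, limma adjusted p = 0.00761). It missed the threshold when SE-BDEV 1, SE-BDEV 2 or CON-BDEV 1 was left out, with adjusted p of 0.0931, 0.0707 and 0.0759 (limma). miR-146a-5p, with the values above, is also in this list. Without both libraries numbered 3 it passed too, and 3 of the 5 then tested from this list were called (limma). Their median log2 difference was then 2.15. miR-142a-3p had a log2 difference of 1.37, miR-342-3p of 0.11 and miR-150-5p, a lymphocyte miRNA, of -0.27, and none of these passed. The summed level of the list was 2114 to 2869 RPM in SE-BDEV and 1862 to 2492 RPM in CON-BDEV, and most of it was miR-342-3p. No member of the list was at 0 in all libraries. The part of immune cells in the level of miR-21a-5p was not tested.

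For the other cell types no miRNA was called, and at an unadjusted p under 0.05 limma gave 1 higher and 0 lower in each remaining list but that of red cells, which had 0. The astrocyte-associated list had 5 of 6 tested rows higher, with a median log2 difference of 0.39 and a summed level of 24602 to 39588 RPM in SE-BDEV against 20282 to 27499 RPM in CON-BDEV. The neuron list had 5 of 7 higher with a median of 0.10 (3 of 7 and -0.0402 without both libraries numbered 3), the endothelial and mural list 4 of 4 with a median of 0.41 (3 of 4 with those scalings), the oligodendrocyte list 2 of 2 with a median of 0.45, and the choroid and ependymal list 3 of 3 with a median of 0.81. The list of other organs had 3 of 4 higher with a median of 0.60, among them the liver miR-122-5p at 116 ± 23.7 RPM in SE-BDEV and 77.6 ± 2.37 RPM in CON-BDEV (SD, n = 3 each; limma adjusted p = 0.457). In the red-cell list the merged miR-486a-5p/486b-5p alone was tested, at a log2 difference of -0.0748.

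The miRNAs whose pattern was most like that of miR-21a-5p were found by Pearson's r over the 6 libraries on log2(RPM + 1), among the other 307 tested. miR-146b-5p came first, with r = 0.99. It was at 61.0, 58.4 and 63.6 RPM in SE-BDEV 1, 2 and 3, against 27.5, 36.3 and 38.8 RPM in CON-BDEV 1, 2 and 3. Like miR-21a-5p it was lowest in CON-BDEV 1, but the ratio of its group levels was far smaller. It was followed by miR-15a-5p, miR-132-5p, miR-20a-5p, miR-199a-3p/199b-3p, miR-153-5p, miR-26b-5p and miR-155-5p, with r between 0.95 and 0.93, while the median r over all 307 was 0.10. The 6 points form the 2 groups, and all 8 miRNAs had SE-BDEV values above every CON-BDEV value, so r follows the group difference first. Of all 308 tested miRNAs 10.7% had such values. Ranking by r with a miRNA whose groups are apart favours them, so nothing is read from that count.

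The 8 differed much in size. miR-155-5p was at 219, 259 and 189 RPM in SE-BDEV 1, 2 and 3, against 37.0, 27.7 and 39.4 RPM in CON-BDEV 1, 2 and 3, and was the nearest to miR-21a-5p in the size of its difference. miR-132-5p was at 192 ± 33.7 RPM in SE-BDEV and 91.6 ± 17.5 RPM in CON-BDEV (SD, n = 3 each). miR-20a-5p, a miRNA of the miR-17 family, was at 22.3 ± 5.78 RPM in SE-BDEV and 9.15 ± 0.549 RPM in CON-BDEV (SD, n = 3 each). miR-15a-5p was at 48.8 ± 3.73 RPM in SE-BDEV and 31.0 ± 3.67 RPM in CON-BDEV, and miR-26b-5p at 2281 ± 391 RPM in SE-BDEV and 1481 ± 310 RPM in CON-BDEV (SD, n = 3 each).

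**Figure D5:**
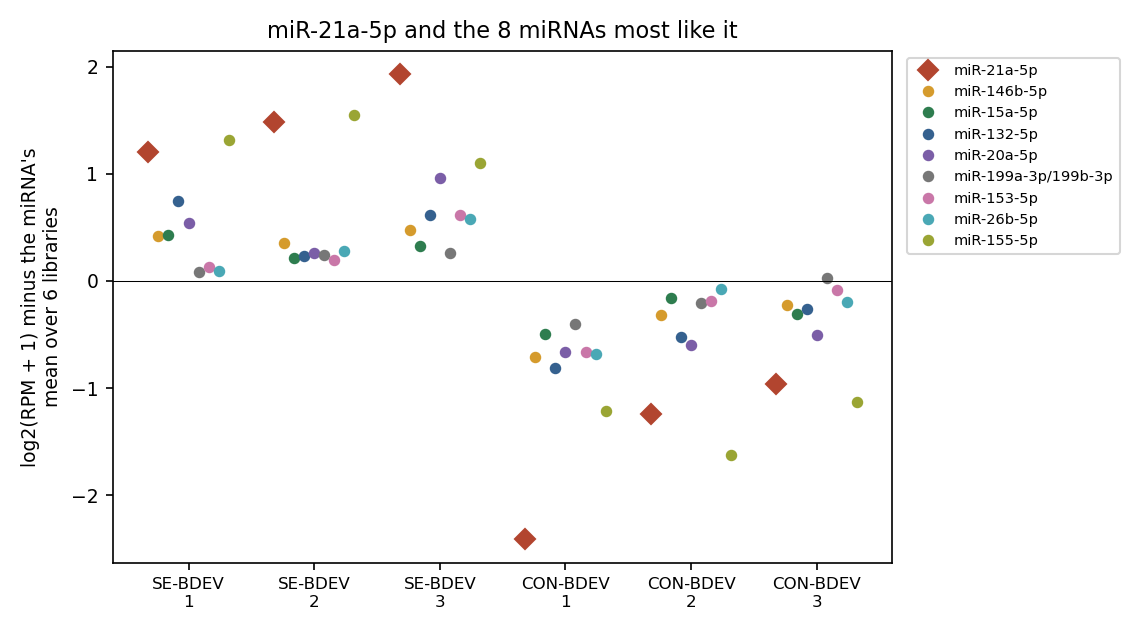
Values of miR-21a-5p (red diamonds) and of the 8 miRNAs most like it in each library, as log2(RPM + 1) minus the miRNA's own mean over 6 libraries; points of a library are set side by side. In SE-BDEV 3 miR-21a-5p is at its highest, at 163 RPM, where miR-155-5p has the lowest value of its SE-BDEV libraries, 189 RPM.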

How the data were processed

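Small RNA of brain-derived vesicles was purified with the miRNeasy Micro Kit and made into libraries with the QIAseq miRNA Library Kit, per the labels' protocols. The authors deposited RPM values per miRNA, and a table of their own comparison, which lists a normalized signal, the log2 fold change with an error, a score and p-values. DESeq2 and mm9 are named in the submitters' processing notes, while the aligner and any use of molecular identifiers are not stated there.

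All RPM values were whole multiples of 1 step per library (tolerance 0.001 step), taken as 1 read. The smallest listed value was 2 reads, so no count model was fitted and the one listed among the alternatives was left out. Intervals cover counting error only.

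Differences were computed on log2(RPM + 1) with limma 3.58.1 (R 4.3.3, statmod 1.5.0; intensity trend, robust, two-sided, Benjamini-Hochberg over the 308 miRNAs averaging at least 10 RPM, called under 0.05), which was checked on simulated data. RNAfold 2.7.2 and matplotlib 3.10.9 were used. The groups share replicate numbers: deviations from group means correlated at 0.216, 0.202 and 0.462 for pairs 1, 2 and 3, over the bound of 0.1, but at -0.0639, -0.0614 and -0.0806 without miR-24-3p. The labels do not say that they are pairs, so blocked values are given where they change a call.

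The members and lists were chosen with earlier results of these data known. Named were both members, members of the lists, the 8 miRNAs most like miR-21a-5p and its 2 neighbours in level on each side per group. Others (miR-24-3p and the miRNAs used as denominators) were chosen after their values were seen.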

Additional observations from a re-analysis of the deposited data

How the results depend on the processing

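Leaving out both libraries numbered 3, and the alternatives for the comparison of arms, were chosen after seeing the data. The log2 difference of miR-21a-5p (3.08) was positive under all 14 alternatives, from 2.46 with a pseudocount of 10, which shrinks low values by construction, to 3.36, and from 2.64 to 3.36 with 1 library left out; median-of-ratios scaling gave 3.01, the total without the 10 most abundant 2.99 and quantile normalization 2.88. For miR-21a-3p, with all CON-BDEV libraries listed at 0, no such value is a measured fold, since the pseudocount or model sets it: 1.14 with a pseudocount of 1, 0.20 with 10, 5.65 in the authors' deposited table, and 0.69 to 1.71 with 1 library left out. The mean 5p share (99.3%) stayed between 98.9% and 99.7%. The arm difference (4.85) was 4.33 without both libraries numbered 3 and 4.35 to 5.22 with 1 library left out, where fewer libraries allow no exact p under 0.125 and 0.0625. Against 3 called miRNAs, miR-21a-5p among them, the count was 10 with the replicate block and 7 in the authors' deposited table. With 1 library left out it was 2 to 8, the 8 without CON-BDEV 2. The cause was not tested. The block left the log2 difference of miR-21a-5p at 3.08 and, among the listed inflammatory and microglial miRNAs, changed the call of miR-146a-5p alone. miR-146a-5p also passed without CON-BDEV 2 (limma adjusted p = 0.0126) and without SE-BDEV 3 (0.0193), over a range of 9.34e-05 to 0.723, and miR-142a-5p also missed without the 10 most abundant in the total (0.0648). miR-150-5p was at 0.00687 without both libraries numbered 3 and miR-342-3p at -0.26 with quantile normalization. The share of tested miRNAs with higher values in SE-BDEV, 57.5%, was 49.0%, 46.8% and 47.1% with those 3 scalings. The planned fit of recovered reads was not run, because single reads are not listed. Depth limits the comparison of the 3p arm: CON-BDEV libraries held 31 to 140 reads of both arms together.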
